A study of Homo sapiens with 12 samples.

Results

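Tacrolimus (TAC) was compared with its vehicle DMSO across every gene that passed a count filter in a cultured line of human podocytes, which in the body wrap the glomerular capillaries with interlocking foot processes. The line is conditionally immortalized by a temperature-sensitive SV40 T gene, carried by the control and the treated cells alike, and had been moved to the non-permissive temperature to differentiate before treatment. TAC at 100 nM or DMSO was given for 24 h, with 3 libraries each, numbered 1 to 3 in the labels. The replicate number was a block term in the fit, so that each TAC library was set against the DMSO library of the same number. Of 62262 genes in the deposited table, 19784 passed the filter. Of the 12 libraries in the series, these 6 form the comparison; 3 libraries of cyclosporine A (CSA) and 3 of voclosporin (VCS), also at 100 nM for 24 h, entered the fit to share one estimate of the spread. The labels do not say whether replicates were separate cultures, so the p-values measure the spread between these samples, which may be technical. The culture is 1 cell line, and NPHS1, which encodes the slit diaphragm protein nephrin, had only 1 to 11 counts per library and was not tested. WT1, a transcription factor of podocytes, was at 0.854 ± 0.219 CPM (counts scaled to a common library size) in DMSO and 1.22 ± 0.31 in TAC (SD, n = 3 for both).

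Tacrolimus binds the small immunophilin FKBP12, encoded by FKBP1A, and the complex blocks calcineurin, the calcium-dependent phosphatase that sends NFAT transcription factors to the nucleus. Cyclosporine A and its analog voclosporin block the same phosphatase through another family of immunophilins, the cyclophilins. FKBP12 also sits on type I receptors of the BMP and TGF-beta families, and tacrolimus is known to displace it. Active BMP receptors phosphorylate SMAD1, SMAD5 and SMAD9, which switch on the ID genes, ATOH8 and the inhibitory SMAD6 and SMAD7. In the kidney, podocytes are a target both of calcineurin inhibitors, through the actin regulator synaptopodin, and of TGF-beta.

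At a Benjamini-Hochberg adjusted p under 0.05 (quasi-likelihood test of edgeR, as for every adjusted p given here), 41 genes differed between TAC and DMSO, 0.207% of those tested. In TAC, 23 genes were higher (0.116%) and 18 were lower (0.091%). The genes of BMP-SMAD signalling led the higher side, and the lower side held inflammatory genes and a few transcripts of airway and basal epithelium. All 41 had the same sign in the 3 same-numbered pairs. In 23 of 23 higher and 16 of 18 lower genes no TAC library overlapped a DMSO library. Of all genes tested, 5.99 and 6.44% did so upward and downward. The 41 were selected on these same libraries, so such separation is in part built in and is no added support. The median log2 fold change was 0.78 among the higher and -0.87 among the lower genes, against -0.005 over all genes. At an unadjusted p under 0.05 stood 2597 genes, 13.1% of those tested, with 6.38% higher and 6.75% lower. These shares are the background for the list counts at that p below. By annotation, 36 of the 41 (87.8%) were protein coding, against 74.8% of the genes tested.

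The number of calls differed with the libraries and terms in the fit. The block lowered the common biological coefficient of variation from 0.160 to 0.0995, and without it 7 genes passed, all among the 41: ID1, SAMD11, LINC02593, H2BC26, SFTPA1 and the identifiers ENSG00000269706 and ENSG00000196656. With the 6 TAC and DMSO libraries alone, still blocked, 1359 genes passed, the 41 among them. Leaving out CSA replicate 3 raised the count to 259. Leaving out a DMSO library gave 7 (replicate 1), 10 (replicate 2) or 9 (replicate 3) calls, and leaving out a TAC library gave 9, 4 or 8. SFTPA1, ID1, ATOH8 and CGB8 passed in each of the 12 fits that left 1 library out, with adjusted p-values up to 0.0102.

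**Figure D1:**
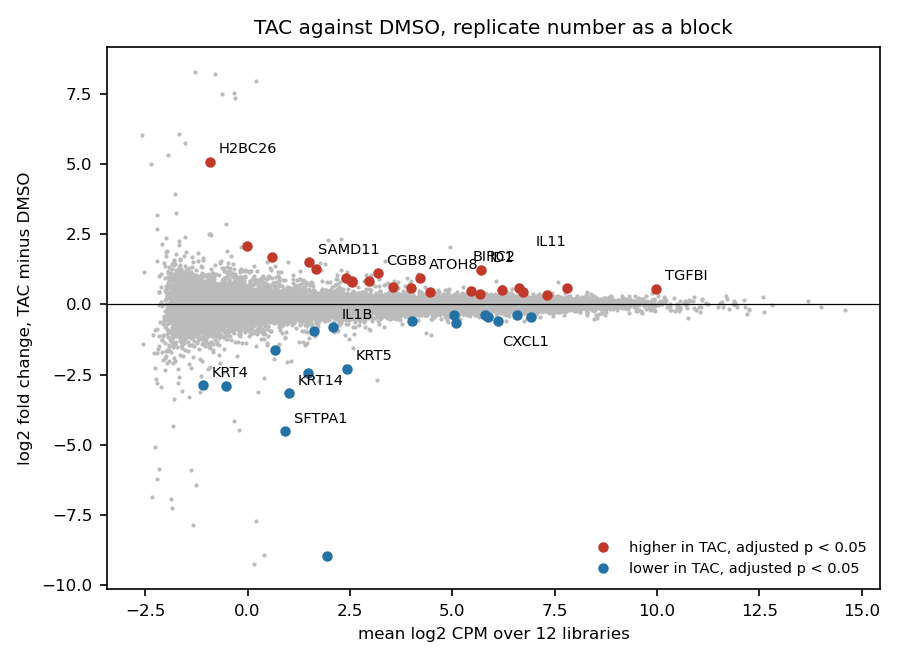
Log2 fold change of TAC minus DMSO (vertical axis) against the mean log2 CPM over 12 libraries (horizontal axis) for the 19784 genes tested, 1 point a gene; red marks the 23 genes higher and blue the 18 genes lower at an adjusted p under 0.05. TGFBI (log2 fold change 0.56) is called at a high level with a moderate change, while SFTPA1, KRT5, KRT14, KRT4 and H2BC26 are called at low levels with large ones.

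6 targets of BMP-SMAD signalling rose in TAC. Of 27 listed targets, 23 were tested and 6 passed, all higher: ID1, ID3, ATOH8, SMAD6, SMAD7 and SMAD9. The list had 19 members above 0 and a median log2 fold change of 0.37, against 9690 of 19784 and -0.005 over all genes. This list, like the others, was chosen with earlier results of these data known, so its counts are a description only. At an unadjusted p under 0.05, 10 members were higher (6.38% of all genes) and 0 lower.

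ID1, which encodes an inhibitor of basic helix-loop-helix factors and is a direct target of BMP SMADs, was at 43.4, 42.3 and 33.1 CPM in DMSO 1 to 3 and at 93.2, 93.5 and 86.7 in TAC 1 to 3. The groups were far apart, every TAC library lying above every DMSO library. The log2 fold change was 1.22, SE 0.10, adjusted p = 0.000525, a 2.32-fold difference. In CSA it was at 48.3, 36.9 and 27.5 CPM and in VCS at 45.5, 42.3 and 32.6, where the range overlapped that of DMSO. Library 3 was the lowest in each of the 4 groups.

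ID3, its close relative, was at 96.9, 87.9 and 95.3 CPM in DMSO and 131, 135 and 153 in TAC, with a log2 fold change of 0.58, SE 0.08, adjusted p = 0.0104. ATOH8, a helix-loop-helix factor itself, went from 16.8, 15.1 and 12.9 to 33.6, 30.1 and 23.7 CPM, a log2 fold change of 0.96, SE 0.08, adjusted p = 0.000525. The ATOH8 groups did not overlap, although its TAC 3 library stood well below TAC 1 and TAC 2. SMAD9, a receptor-activated SMAD that is itself induced by BMP, was at 6.35, 7.13 and 5.97 CPM in DMSO and 12.8, 12.3 and 9.74 in TAC (log2 0.84, SE 0.11, adjusted p = 0.00802). The feedback inhibitors rose as well. SMAD6, which blocks BMP receptors, was at 10.6, 9.53 and 10.9 CPM in DMSO and 16.8, 15.4 and 15.4 in TAC (log2 0.61, SE 0.09, adjusted p = 0.0163). SMAD7, which blocks both BMP and TGF-beta receptors, was at 43.8, 40.2 and 34.6 and 57.4, 55.6 and 50.8 CPM (log2 0.47, SE 0.07, adjusted p = 0.0163). In every one of these genes all TAC libraries exceeded all DMSO libraries. The calls of ID3, SMAD6, SMAD7 and SMAD9 were lost when single DMSO or TAC libraries were left out, with highest adjusted p-values of 0.105 (without DMSO 3), 0.145 (without DMSO 1), 0.163 (without DMSO 3) and 0.103 (without DMSO 1).

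The promoters of ID1, SMAD6 and SMAD7 are printed because these genes moved together. Each is the 250 bases before the RefSeq start site on GRCh38.p14, and capitals mark matches to letters known from SMAD binding: GTCTAGAC, the palindromic SMAD box, its shorter form CAGAC, and GGCGCC, a GC-rich element bound by BMP SMADs. Both strands were searched. ID1 is at chr20:31605039-31605288 (plus strand), SMAD6 at chr15:66701986-66702235 (plus strand) and SMAD7 at chr18:48950966-48951215 (minus strand).
ID1: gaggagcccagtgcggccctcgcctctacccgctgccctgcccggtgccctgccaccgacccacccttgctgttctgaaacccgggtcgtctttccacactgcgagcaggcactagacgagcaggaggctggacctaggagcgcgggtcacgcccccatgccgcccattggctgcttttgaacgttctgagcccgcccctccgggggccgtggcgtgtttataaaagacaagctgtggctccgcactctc
SMAD6: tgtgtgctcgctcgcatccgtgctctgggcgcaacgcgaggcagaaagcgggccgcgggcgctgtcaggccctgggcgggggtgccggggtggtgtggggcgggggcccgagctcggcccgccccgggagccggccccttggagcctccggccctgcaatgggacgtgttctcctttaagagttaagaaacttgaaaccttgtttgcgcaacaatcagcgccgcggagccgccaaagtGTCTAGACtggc
SMAD7: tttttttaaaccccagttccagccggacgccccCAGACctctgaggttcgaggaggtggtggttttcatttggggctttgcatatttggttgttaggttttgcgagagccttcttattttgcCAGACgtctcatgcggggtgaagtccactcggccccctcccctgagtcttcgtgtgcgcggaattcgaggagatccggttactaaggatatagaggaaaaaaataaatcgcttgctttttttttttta
SMAD6 holds GTCTAGAC 4 bases before the start site, a match that 0.176% of the 27305 promoters in the table have. SMAD7 holds CAGAC at 2 places, and 37.8% of all promoters hold at least 1. The ID1 window has no match to any of these letters, and GGCGCC is in 16.1% of all promoters. Among genes tested, GGCGCC is in 24.6% of promoters, CAGAC in 36.4% and GTCTAGAC in 0.178%. Of the 35 promoters of called genes, 20% hold GGCGCC, 31.4% CAGAC and 2.86% (1 promoter, SMAD6) GTCTAGAC. Among the other called targets, ID3 has 1 match to CAGAC, and ATOH8 and SMAD9 have no match. A match is a description of the letters only, and none was tested for binding here.

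ID2 and ID4, named after their values were seen, lay higher in TAC but did not pass. ID2 was at 15.5, 14.1 and 10.3 CPM in DMSO and 20.3, 21.4 and 20.3 in TAC, without overlap (log2 0.66, SE 0.12, adjusted p = 0.0586). ID4 was at 1.19, 1.63 and 1.35 CPM in DMSO and 2.75, 2.94 and 2.3 in TAC (log2 0.94, SE 0.22, adjusted p = 0.152), also without overlap. Other targets, also named after their values were seen, lay close to DMSO. BAMBI, which encodes a decoy receptor, was at 23.2 CPM in DMSO and 25.3 in TAC on average, and GREM1, a secreted BMP antagonist, at 1464 and 1577; their adjusted p-values were 0.626 and 0.788.

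**Figure D2:**
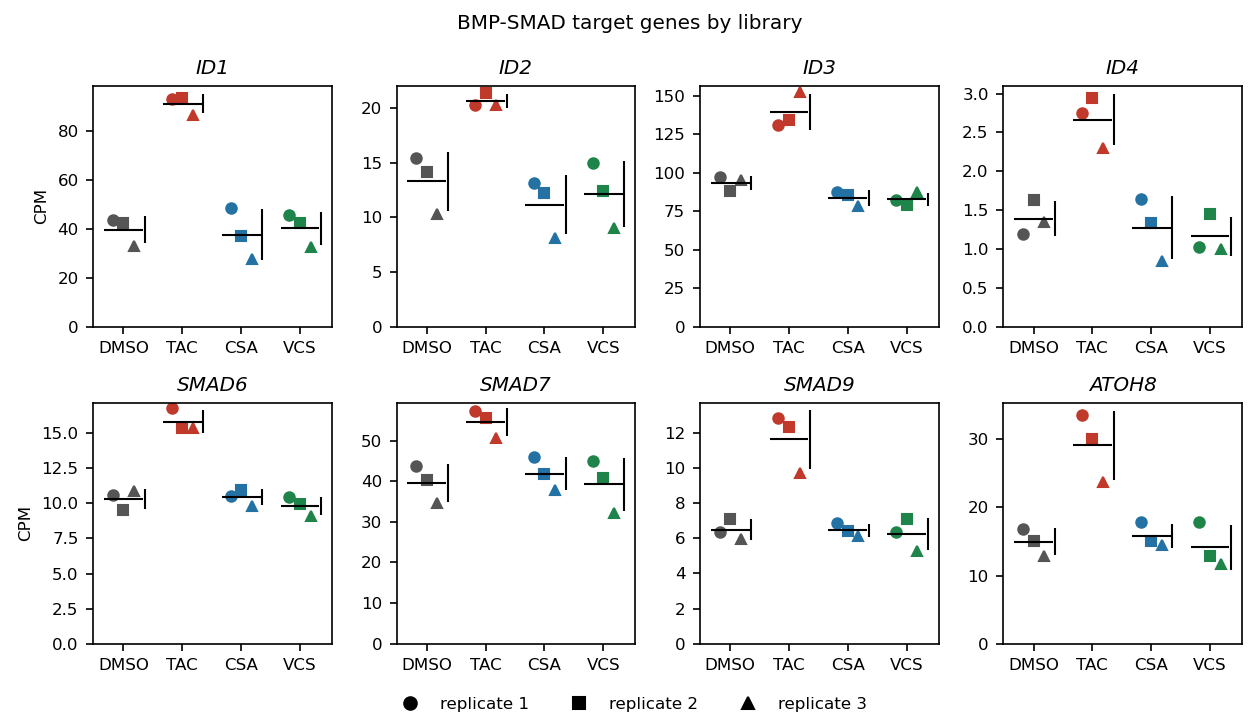
CPM (linear vertical axes from 0) of 8 BMP-SMAD target genes in each of the 12 libraries by group; symbols give the replicate number, horizontal lines the mean and vertical bars the SD of 3 libraries. In all 8 genes the 3 TAC libraries lie above the 3 DMSO libraries, as for ID1 with 86.7 to 93.5 against 33.1 to 43.4 CPM; ID2 and ID4 did not pass the test.

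SMAD9, described above with the targets, is also part of the machinery upstream of them. Of the 33 other tested ligands, receptors, SMADs and antagonists of the BMP family, 0 were called by edgeR and 2 by DESeq2. At an unadjusted p under 0.05, 1 was higher and 5 were lower, against 6.38 and 6.75% of all genes. The median log2 fold change of the 33 was 0.02. GDF5, a BMP-family ligand, was at 110.5, 103 and 102 CPM in DMSO and 80.6, 80.8 and 65.4 in TAC, lower in every TAC library (log2 -0.48, SE 0.11, adjusted p = 0.152). SMAD5, a receptor-activated SMAD, was at 97.1, 80.6 and 82.8 and 112, 103 and 98.7 CPM (log2 0.27, SE 0.08, adjusted p = 0.243). BMP8A, another ligand, stood at 4.06 ± 0.549 CPM in DMSO and 2.76 ± 0.378 in TAC, and GDF15, a distant family member induced by stress, at 306 ± 72 and 251 ± 56.4; neither passed (adjusted p = 0.243 and 0.179).

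Whether the cells on TAC also stood apart from those on the cyclosporine-type compounds was asked by setting TAC against the mean of CSA and VCS. Dose and time were the same, and the contrast holds no DMSO library. Whether TAC, CSA and VCS blocked calcineurin to the same degree at that dose was not tested. It uses the same TAC libraries and the same fit as TAC against DMSO, so calls common to both are not independent. It called 57 genes (0.288% of those tested), of which 36 were higher (0.182%) and 21 lower (0.106%) in TAC; leaving out TAC replicate 2 gave 10, leaving out CSA replicate 3 gave 264, and without the block 9 passed. The count without other single libraries was 15 to 76. Among the BMP-SMAD targets 8 of 23 passed, all higher, and they were the 6 genes above with ID2 and ID4. Their log2 differences were 1.26 (SE 0.09, adjusted p = 0.000101) for ID1, 0.96 (SE 0.07, adjusted p = 0.000101) for ATOH8 and 0.74 (SE 0.06, adjusted p = 0.000304) for ID3. For ID2 the difference was 0.86 (SE 0.10, adjusted p = 0.00494) and for ID4 1.14 (SE 0.19, adjusted p = 0.0302). The list's median difference was 0.40, against 0.001 over all genes. Against DMSO, the same 23 genes had a median of -0.09 in CSA and -0.09 in VCS; these comparisons and that of TAC share the DMSO libraries.

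GDF5 passed in this contrast in the other direction. It was at 139.8, 124 and 161 CPM in CSA and 128, 149 and 123 in VCS, so that all 6 libraries lay above both DMSO and TAC, and the log2 difference was -0.87 (SE 0.10, adjusted p = 0.0037). Genes of the contrast outside the BMP lists, named after their values were seen, were the insulin-like growth factor binding protein gene IGFBP3 (0.44, SE 0.06, adjusted p = 0.0089) and the mesenchymal transcription factor SNAI1 (0.67, SE 0.10, adjusted p = 0.0149) among the higher. Among the lower were the plasminogen activator gene PLAT (-0.53, SE 0.07, adjusted p = 0.00932) and the leukocyte adhesion molecule VCAM1 (-0.92, SE 0.14, adjusted p = 0.0167).

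TGF-beta targets lay on the same side as the BMP targets. All 29 listed were tested, 4 passed, all higher, and 22 were above 0, with a median log2 fold change of 0.14 (49.0% of all genes were above 0). At an unadjusted p under 0.05, 12 were higher and 4 lower, against 6.38 and 6.75% of all genes. The list's medians against the shared DMSO libraries were 0.08 in CSA and 0.06 in VCS, and TAC against their mean gave 0.02 with 4 members called, all higher. SMAD7 is one of them and stands in both lists. TGFBI, a secreted matrix protein, was at 927, 847 and 813 CPM in DMSO and 1279, 1320.4 and 1204 in TAC (log2 0.56, SE 0.08, adjusted p = 0.0217). SKIL, a corepressor that dampens SMAD signalling, was at 53.1, 47.1 and 44.6 and 70.7, 55.1 and 63.5 CPM (log2 0.38, SE 0.07, adjusted p = 0.046). For both genes the TAC libraries lay above all DMSO libraries. In each pair SKIL was higher, though by less in pair 2 (0.23 on the log2 scale) than in pair 1 (0.41) or pair 3 (0.51).

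IL11, a cytokine of the IL-6 family, was listed both as a TGF-beta and as an NFAT target. Its levels were 115, 95.7 and 89 CPM in DMSO and 147, 122 and 135 in TAC, and the log2 fold change was 0.44, SE 0.07, adjusted p = 0.0283. The collagen gene COL1A2 did not pass and was at 9.43, 7.17 and 7.15 CPM in DMSO and 7.62, 1.22 and 1.2 in TAC (adjusted p = 0.279), with TAC 1 near DMSO and TAC 2 and 3 low. Leaving out DMSO or TAC libraries ended the calls of TGFBI, SKIL and IL11, with adjusted p-values up to 0.224 (without TAC 2), 0.32 (without DMSO 1) and 0.245 (without DMSO 3). Libraries outside the comparison mattered too: SKIL also lost its call without CSA 2 or any VCS library, and IL11 without VCS 1.

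The genes of the circuit that tacrolimus is known to block were examined next. Of 11 tested calcineurin subunits and regulators 0 passed in edgeR, with 1 at an unadjusted p under 0.05 and 0 called by DESeq2. RCAN1, an inhibitor of calcineurin and a classical NFAT target, was at 167, 152 and 159 CPM in DMSO and 173, 159 and 166 in TAC. Its log2 fold change was 0.06 with a 95% interval of -0.10 to 0.21. PPP3CA, a catalytic subunit, was at 59.8, 58.6 and 59.5 and 61.6, 64.3 and 61 CPM (log2 0.07, SE 0.06, adjusted p = 0.612). PPP3R1, the regulatory subunit, had the smallest p of the list, at 52.9, 59.8 and 51.4 CPM in DMSO and 68.9, 67.8 and 58.1 in TAC (log2 0.25, SE 0.07, adjusted p = 0.212).

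FKBP1A itself was at 306, 314 and 289 CPM in DMSO and 294, 304 and 313 in TAC, with overlapping groups, and its 95% interval ran from -0.18 to 0.20 around 0.01. Of 15 tested FK506-binding protein genes 0 passed, with 1 higher and 2 lower at an unadjusted p under 0.05 and 0 called by DESeq2. FKBP5, a cochaperone of steroid receptors, was at 55.6 ± 6.78 CPM in DMSO and 66.1 ± 9.91 in TAC (log2 0.25, SE 0.07, adjusted p = 0.214). Of 16 cyclophilin genes edgeR and DESeq2 both called 0, and 0 had an unadjusted p under 0.05.

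Among 21 tested NFAT targets 1 passed, IL11, and it was higher; 14 lay below 0, with a median of -0.09. At an unadjusted p under 0.05, 2 were higher and 4 lower, against 6.38 and 6.75% of all genes, and DESeq2 called 4. The next members by p were lower and are also NF-kB targets: IL6 (log2 -0.34, SE 0.07, adjusted p = 0.071), CXCL8 (-0.59, SE 0.12, adjusted p = 0.0728) and CCL2 (-0.71, SE 0.14, adjusted p = 0.0828). NFAT targets of lymphocytes such as IL2, IL4 and IFNG were too low to be tested. The 14 NFAT factors and kinases had 0 calls, 2 at an unadjusted p under 0.05, and 0 calls by DESeq2.

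3 inflammatory genes fell in TAC, and most others of their list lay lower. Of 37 NF-kB and inflammatory genes, all tested, 3 passed and were lower (CXCL1, IL1B and NFKB2), 33 lay below 0, and 18 were lower at an unadjusted p under 0.05, against 6.75% of all genes. The list's median log2 fold change was -0.24. The same median was -0.02 in CSA and -0.01 in VCS against the shared DMSO libraries. TAC against the mean of CSA and VCS gave a median of -0.24, with 4 members called, all lower: IL1B, CCL2, RELB and VCAM1. The last 2 are named for these values.

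CXCL1, a chemokine for neutrophils, was at 119, 65.7 and 63.3 CPM in DMSO and 96.9, 41.2 and 35.3 in TAC, with a log2 fold change of -0.60, SE 0.09, adjusted p = 0.0226. Its groups overlapped, since library 1 stood far above 2 and 3 in every group, but within each pair TAC was lower. IL1B, the cytokine interleukin-1 beta, was at 5.96, 4.55 and 4.22 and 3.57, 2.64 and 2.21 CPM, without overlap (log2 -0.81, SE 0.13, adjusted p = 0.0366). NFKB2, a subunit of the noncanonical NF-kB pathway, was at 91.2, 113 and 118 and 72.7, 86.3 and 87.7 CPM, also without overlap (log2 -0.38, SE 0.07, adjusted p = 0.0494). CXCL8, another neutrophil chemokine with a high library 1 in each group, was at 185, 116 and 102 CPM in DMSO and 139, 81.1 and 56.7 in TAC. IL6 was at 226, 199 and 180.2 and 182, 163 and 133, and CCL2, a chemokine for monocytes, at 15.4, 11.7 and 17.2 and 10.0, 6.62 and 10.5. In each of these 3 genes every pair was lower in TAC, and none passed.

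The promoter of CXCL1 (RefSeq, GRCh38.p14, chr4:73869143-73869392, plus strand) is shown for its match to the kappa B motif, the letters GGGA and TTCC with 2 free bases between them, bound by NF-kB and searched on both strands.
CXCL1: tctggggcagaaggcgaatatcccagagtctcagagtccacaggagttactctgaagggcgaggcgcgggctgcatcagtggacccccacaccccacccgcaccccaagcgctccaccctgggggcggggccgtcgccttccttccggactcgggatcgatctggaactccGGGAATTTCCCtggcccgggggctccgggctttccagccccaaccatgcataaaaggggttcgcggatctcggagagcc
The capitals are 2 overlapping matches, the nearer of which ends 68 bases before the start site. Of all promoters in the table, 1.42% hold such a match. The windows of IL1B and NFKB2, the other called members of the list, have none.

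Single genes of inflammation outside the list passed as well. IL4I1, a secreted amino acid oxidase of myeloid cells that NF-kB can induce, was at 45.4, 34 and 40.4 CPM in DMSO and 31.4, 19.6 and 24.5 in TAC (log2 -0.68, SE 0.09, adjusted p = 0.0104). The span of IL4I1 overlaps those of NUP62 on the same strand and of ATF5 on the other, so its reads are uncertain. CLEC4E, a pattern-recognition lectin, was at 19.7, 16.1 and 21.4 and 14.6, 8.84 and 15 CPM (log2 -0.60, SE 0.10, adjusted p = 0.0361). BIRC2, which encodes the ubiquitin ligase cIAP1 that restrains noncanonical NF-kB signalling, rose: it was at 69.3, 66.3 and 59.5 CPM in DMSO and 101, 93.1 and 82.7 in TAC (log2 0.50, SE 0.06, adjusted p = 0.00802). None of these 3 genes overlapped between the groups. With 1 library left out, the adjusted p reached 0.202 (without DMSO 2) for CXCL1, 0.226 (without DMSO 2) for IL1B, 0.309 (without DMSO 2) for NFKB2, 0.126 (without TAC 2) for IL4I1, 0.239 (without TAC 2) for CLEC4E and 0.105 (without DMSO 1) for BIRC2. Libraries outside the comparison also ended calls when left out. NFKB2 lost its call without CSA 1, CSA 2, VCS 1 or VCS 2, IL1B without CSA 2 or VCS 1, and CLEC4E without CSA 2.

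**Figure D3:**
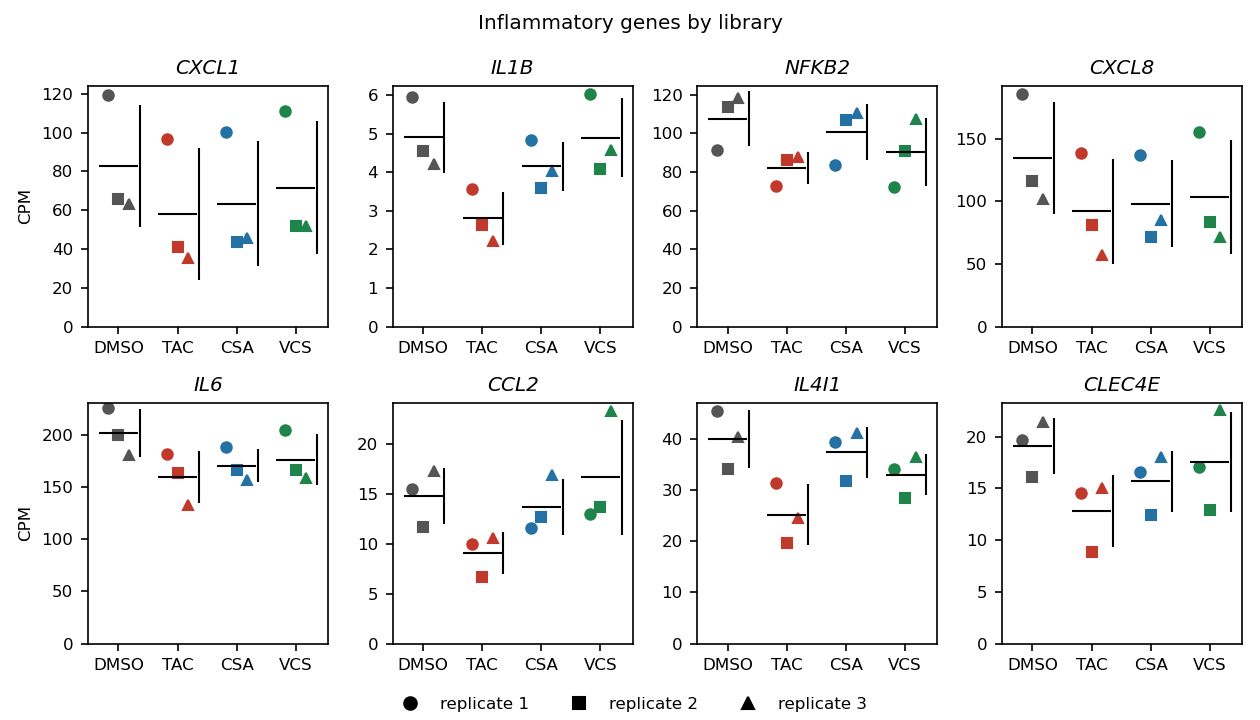
CPM (linear vertical axes from 0) of 8 inflammatory genes in each of the 12 libraries by group; symbols give the replicate number, horizontal lines the mean and vertical bars the SD of 3 libraries. Each TAC library lies below the DMSO library of the same number, and CXCL1 and CXCL8 show a high library 1 in every group (CXCL1 at 119 CPM in DMSO 1 and 96.9 in TAC 1).

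Interferon-stimulated genes leaned the same way without a call. Of 44 tested, 38 lay below 0 and 17 were lower at an unadjusted p under 0.05, against 10094 of 19784 and 6.75% over all genes, the median being -0.19. EdgeR called 0 and DESeq2 called 2. IFITM1, an antiviral membrane protein, was at 35.9, 38.3 and 30.3 CPM in DMSO and 28.3, 26.4 and 23.4 in TAC (log2 -0.42, SE 0.08, adjusted p = 0.0576). Unlike the NF-kB list, this list had medians of -0.22 in CSA and -0.14 in VCS, and TAC against their mean gave 0.04 with 0 calls.

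Several higher genes belong to none of these pathways. NCOA4, the receptor that delivers ferritin for degradation, was at 217, 196 and 156 CPM in DMSO and 319, 314 and 221 in TAC (log2 0.58, SE 0.09, adjusted p = 0.0283). BDKRB1, the inducible bradykinin receptor, was at 14.9, 12.4 and 14.7 and 22.2, 18.5 and 21.5 CPM (log2 0.57, SE 0.08, adjusted p = 0.0163). For both genes the groups did not overlap. FRMD3, a cytoskeletal FERM-domain protein, rose by 0.78, SE 0.12, adjusted p = 0.0217 on the log2 scale, SERTAD4 by 0.43, SE 0.07, adjusted p = 0.046 and QPRT, an enzyme of NAD synthesis, by 0.34, SE 0.06, adjusted p = 0.0494. SERTAD4 overlaps an antisense gene, and whether the counting used strand is not stated, so its reads are uncertain.

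Some of the higher genes were neighbours in the genome. SAMD11 rose from 1.82, 2.12 and 2.01 to 5.56, 5.79 and 5.62 CPM (log2 1.51, SE 0.18, adjusted p = 0.00802), and the noncoding LINC02593 from 0.791, 0.892 and 1.12 to 3.05, 2.85 and 3.1 CPM (log2 1.68, SE 0.23, adjusted p = 0.0117). Their GENCODE 29 models lie on chromosome 1 (GRCh38), on opposite strands with 2911 bases between them. SAMD11 overlaps the end of NOC2L, which, looked up after the calls were seen, was at 99.2 ± 4.3 CPM in DMSO and 103 ± 1.29 in TAC (adjusted p = 0.752). On chromosome 19, CGB8, a gene of the chorionic gonadotropin beta cluster, went from 5.23, 7.47 and 8.21 to 11.7, 17 and 16.6 CPM (log2 1.12, SE 0.10, adjusted p = 0.000646). The pseudogene ENSG00000269706, 1110 bases away, went from 0.578, 0.461 and 0.297 to 1.96, 1.93 and 1.81 CPM. KCNA7, a potassium channel gene 16571 bases farther on, went from 4.68, 3.51 and 6.4 to 7.16, 7.21 and 11.3 CPM (log2 0.83, SE 0.13, adjusted p = 0.024). CGB7 and NTF4, which lie between them and were looked up for that position, did not pass, with log2 fold changes of 0.17 (SE 0.09, adjusted p = 0.426) and 0.27 (SE 0.18, adjusted p = 0.529). The gonadotropin genes are near-identical copies, so how reads were split among them is uncertain.

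Lower metabolic and signalling genes were few. G0S2, an inhibitor of the lipase ATGL, was at 66, 58.8 and 53.7 CPM in DMSO and 51.2, 44 and 40.9 in TAC (log2 -0.39, SE 0.07, adjusted p = 0.0366). PISD, the mitochondrial enzyme that makes phosphatidylethanolamine, was at 119, 115 and 162 and 86.9, 92.5 and 112 CPM (log2 -0.43, SE 0.07, adjusted p = 0.043); it overlaps SFI1 on the other strand. The tyrosine kinase gene TNK2 fell by 0.38 (SE 0.07, adjusted p = 0.046) and the membrane protein gene PDZK1IP1 by 0.45 (SE 0.08, adjusted p = 0.0494) on the log2 scale, the latter with overlapping groups. Each of the genes from NCOA4 to PDZK1IP1 in these paragraphs, other than CGB8, lost its call without single DMSO or TAC libraries. NCOA4, SERTAD4, QPRT, G0S2, PISD, TNK2 and PDZK1IP1 also lost it without single CSA or VCS libraries, which are outside the comparison. The adjusted p reached 0.229 (without TAC 2) for NCOA4, 0.0965 (without TAC 2) for SAMD11, 0.199 (without TAC 2) for KCNA7, 0.299 (without DMSO 2) for G0S2, 0.296 (without DMSO 1) for PISD and, at the top, 0.355 (without DMSO 2) for QPRT.

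Low transcripts of lung and basal epithelium gave the largest falls among named genes. SFTPA1, a surfactant protein of the lung, was at 4.26, 3.04 and 3.86 CPM in DMSO and 0.363, 0.119 and 0.0307 in TAC (log2 -4.51, SE 0.39, adjusted p = 0.000525). Its near copy SFTPA2 was at 6.63, 2.95 and 3.82 and 1.03, 0.801 and 0.614 CPM (log2 -2.44, SE 0.29, adjusted p = 0.00746), and how reads were divided between the 2 genes is uncertain. KRT5, a keratin of basal epithelium, was at 12.9, 5.5 and 5.47 CPM in DMSO and 2.42, 1.19 and 1.2 in TAC (log2 -2.29, SE 0.28, adjusted p = 0.00802). Its partner KRT14 was at 5.96, 1.72 and 1.71 and 0.453, 0.267 and 0.246 CPM (log2 -3.16, SE 0.46, adjusted p = 0.0163). KRT4 (log2 -2.88, SE 0.48, adjusted p = 0.0366) and the secreted iron-binding LTF (-1.61, SE 0.26, adjusted p = 0.0294) fell as well. In all 6 genes the TAC libraries lay below every DMSO library. Leaving out 1 library raised the adjusted p to 0.0675 (without TAC 2) for SFTPA2, 0.0965 (without TAC 2) for KRT5, 0.151 (without TAC 2) for KRT14, 0.265 (without DMSO 3) for KRT4 and 0.214 (without TAC 2) for LTF, which ended their calls. KRT4 also lost its call without CSA 2 or any VCS library, and LTF without VCS 1.

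In CSA these genes were also low, and in VCS their range overlapped that of DMSO; TAC and CSA share the DMSO libraries. SFTPA1 was at 0.265, 0.223 and 0.116 CPM in CSA and 4.74, 3.18 and 2.11 in VCS, and KRT5 at 1.32, 1.97 and 0.927 and 16.3, 10.2 and 4.94. LTF and SFTPA2 showed the same order, with log2 fold changes against DMSO of -1.62 and -2.49 in CSA and 0.22 and 0.06 in VCS. TAC against the mean of CSA and VCS was not called for any of the 6 (adjusted p of 0.053 for SFTPA1). In the airway list 13 of 17 genes were tested and 2 passed, both lower. The list had 8 members below 0 and a median log2 fold change of -0.43, with medians of -0.38 in CSA and 0.39 in VCS. Its summed level was 29 to 40.1 CPM in DMSO, 28.5 to 35.5 in TAC, 25 to 34.2 in CSA and 39.2 to 53.4 in VCS, and none of its members was at 0 in all libraries. SFTPB, another surfactant gene, was at 10.2, 6.95 and 7.35 CPM in DMSO and 15.8, 12.3 and 14.7 in TAC, and the mucin gene MUC5B at 2.01, 2.74 and 2.14 and 4.75, 5.16 and 5.19; both groups of libraries were apart, but neither passed (adjusted p = 0.18 and 0.294). The keratin list had 3 of 21 called, all lower (KRT5, KRT14 and KRT4), against 0.091% of all genes. Its median log2 fold change was 0.03, and 11 members lay above 0. KRT7 stood at 809 ± 32 CPM in DMSO and 1004 ± 54.4 in TAC. KRT19, named after its values were seen, was at 1037 and 879 CPM on average. Neither KRT7 nor KRT19 passed (adjusted p = 0.18 and 0.243). Where these transcripts come from was not tested. In bulk libraries fewer cells of a type and less RNA per cell cannot be told apart.

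Transcripts of liver plasma proteins lay higher in TAC with 0 calls by edgeR and DESeq2, although 12 had an unadjusted p under 0.05 (all higher). Of 21 genes, 19 were above 0 with a median of 0.76, and in 17 the 3 TAC libraries lay above the 3 DMSO libraries, against 9690 of 19784 above 0, 6.38% higher at that p and 5.99% without overlap over all genes. The list's medians against the shared DMSO libraries were 0.49 in CSA and 0.17 in VCS. Albumin, ALB, was at 144, 127 and 167 CPM in DMSO and 280.2, 256 and 234 in TAC (log2 0.81, SE 0.32, adjusted p = 0.319; named after its values were seen). In CSA it was at 119, 266 and 223 CPM and in VCS at 259, 113 and 119, so that single libraries of those groups reached the TAC level and others the DMSO level. The gene of hemopexin, HPX, was at 5.96, 5.32 and 8.08 CPM in DMSO and 9.79, 10.0 and 11.7 in TAC. The list's summed level was 687 to 934 CPM in DMSO, 917 to 1178 in TAC, 803 to 1083 in CSA and 715 to 1202 in VCS. A large part of this sum is C3, named after its values were seen, at 451 CPM in DMSO and 427 in TAC on average. The log2 fold change of C3 was -0.08 (SE 0.12, adjusted p = 0.804).

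Endothelial markers lay lower, again with 0 calls by edgeR and DESeq2. Of 17 tested, 15 were below 0, with a median of -0.33, against 10094 of 19784 below 0 over all genes. At an unadjusted p under 0.05, 5 were lower, against 6.75% of all genes. In CSA and VCS, against the shared DMSO libraries, the list's median was -0.24 and 0.06. PECAM1, the adhesion molecule CD31, was at 4.17, 1.14 and 1.48 CPM in DMSO and 1.87, 0.089 and 0.184 in TAC (adjusted p = 0.274), low in TAC 2 and 3 and overlapping DMSO in TAC 1. The summed level of the list was 102 to 113 CPM in DMSO and 91.9 to 111 in TAC. Most of it is ENG and ROBO1, named after their values were seen. On average they were at 57.2 and 31.2 CPM in DMSO and 56.4 and 31.9 in TAC. Of 17 leukocyte markers 8 were tested and 0 called by edgeR and DESeq2 (1 at an unadjusted p under 0.05), with sums of 71.5 to 83.8 and 60.2 to 82.9 CPM, and CD3D, CD3E and CD8A were among those too low to test. Most of these sums is CD68, named after its values were seen, at 70.2 CPM in DMSO and 66.0 in TAC on average. The part of these transcripts in the other results was not tested.

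**Figure D4:**
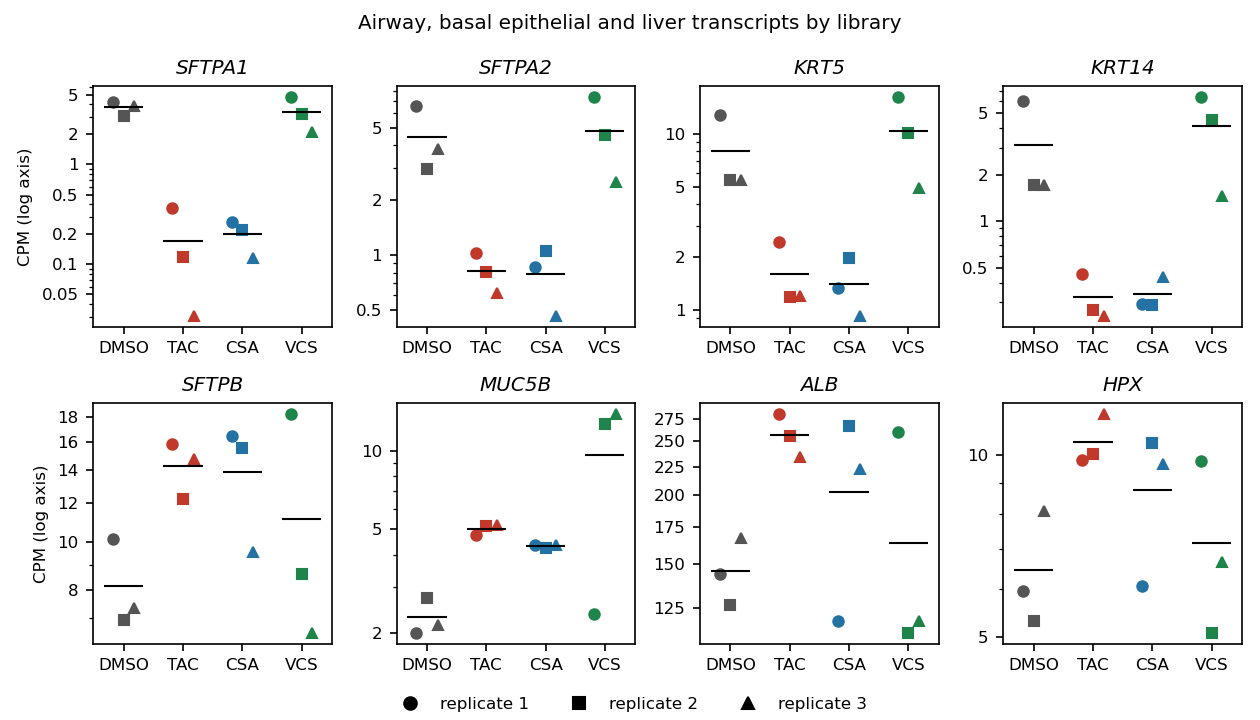
CPM (log vertical axes) of 8 airway, basal epithelial and liver transcripts in each of the 12 libraries by group; symbols give the replicate number and horizontal lines the mean of 3 libraries. SFTPA1, SFTPA2, KRT5 and KRT14 are low in TAC and CSA (SFTPA1 at 0.0307 to 0.363 CPM in TAC) and near DMSO in VCS, while SFTPB, MUC5B, ALB and HPX lie higher in TAC than in DMSO.

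5 calls concern copies or joined transcripts and are uncertain. H2BC26, a histone gene with near-identical relatives, had 2 counts over the 3 DMSO libraries and 82 over the 3 TAC libraries, a ratio of 39.5 with a 95% counting interval of 10.6 to 332; CSA had 93 and VCS 5. It was the only 1 of 20 histone genes called. The processed pseudogene ENSG00000196656, on the strand opposite ANK2, had 716 counts summed over DMSO and 1 in TAC, a ratio of 743 (133 to 29379), with 734 in CSA and 0 in VCS. NDUFC2-KCTD14, a readthrough of 2 genes, was at 1.46, 2 and 1.62 CPM in DMSO and 3.45, 4.48 and 4.18 in TAC, and in CSA and VCS it was at 3.79, 3.82 and 2.72 and 4, 3.58 and 2.22. The readthrough ENSG00000268083 over ECH1 and HNRNPL fell (log2 -2.90, SE 0.50, adjusted p = 0.046), as did the ribosomal pseudogene RPL15P3 (-0.94, SE 0.15, adjusted p = 0.0283). Leaving out 1 library raised the adjusted p to 0.103 (without DMSO 1) for H2BC26, 0.157 (without TAC 2) for ENSG00000196656 and 0.226 (without DMSO 1) for NDUFC2-KCTD14. NDUFC2-KCTD14 also lost its call without CSA 2 or VCS 2, and ENSG00000268083 kept its call in 1 of 12 such fits. ENSG00000290791, which has no entry in GENCODE 29, was higher (0.95, SE 0.15, adjusted p = 0.0307).

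Cell cycle genes leaned higher in TAC, with 0 calls by edgeR and 3 by DESeq2. Of 45 tested, 40 lay above 0 and 22 were higher at an unadjusted p under 0.05, against 6.38% of all genes, and the median log2 fold change was 0.21. KIF20A, a mitotic kinesin, was at 46.9, 45.1 and 39.1 CPM in DMSO and 70.8, 51.9 and 52.6 in TAC (log2 0.41, SE 0.08, adjusted p = 0.0837). CENPE, a kinetochore motor, was at 46.4, 52.6 and 47.1 and 66.9, 62.1 and 60.4 CPM (log2 0.37, SE 0.08, adjusted p = 0.12). Both genes were without overlap, and both passed against the mean of CSA and VCS (adjusted p = 0.0419 and 0.0339). The list's median was 0.02 in CSA and 0.0005 in VCS, against the same DMSO libraries. The growth-related targets of YAP and TEAD had 19 of 23 above 0, a median of 0.10 and 0 calls by edgeR (2 by DESeq2). At an unadjusted p under 0.05, 7 were higher and 1 lower, against 6.38 and 6.75% of all genes. This list's medians were close to that in CSA (0.09) and VCS (0.10) against the same DMSO libraries. TAC against their mean gave 0.004, with 3 members called, all higher. ANKRD1, a stretch-responsive cofactor and the member with the smallest p, was at 283, 291 and 303 CPM in DMSO and 357, 382 and 445 in TAC (log2 0.43, SE 0.08, adjusted p = 0.0526).

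Genes that define podocyte function showed 0 calls by edgeR. Of 27 tested genes of the slit diaphragm and foot process, 15 lay above 0 with a median of 0.02. At an unadjusted p under 0.05 stood 2 higher and 2 lower genes, against 6.38 and 6.75% of all genes. SYNPO, the actin-bundling synaptopodin, was at 52.3, 41.9 and 44.8 CPM in DMSO and 61, 57 and 49.8 in TAC, higher in each pair, with a log2 fold change of 0.27, SE 0.11, adjusted p = 0.33 and a 95% interval of 0.03 to 0.51. CD2AP, the adaptor that links nephrin to actin, was at 114, 103 and 86.1 and 134, 134 and 106 CPM (log2 0.30, SE 0.09, adjusted p = 0.232). Of 17 transcription factors of podocytes, PAX8, a factor of the early nephron that mature podocytes lose, had the smallest p. It was at 436, 353 and 476 CPM in DMSO and 316, 251 and 317 in TAC, without overlap (log2 -0.52, SE 0.09, adjusted p = 0.0525). DESeq2 called 1 factor of this list and 1 of 30 contractile and actin genes, and 0 of the slit diaphragm genes.

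Genes of the glomerular basement membrane (20 tested) and of interstitial matrix (34 tested) had medians of -0.05 and -0.008 and 0 calls by edgeR and DESeq2. At an unadjusted p under 0.05 stood 2 lower membrane genes and 3 higher and 6 lower matrix genes. The shares over all genes were 6.38% higher and 6.75% lower. The 24 genes of integrins and focal adhesion had a median of 0.06 and 0 calls by edgeR (1 by DESeq2), with 1 at an unadjusted p under 0.05. Glucocorticoid receptor targets had 0 calls by edgeR (2 by DESeq2), 8 higher and 1 lower at an unadjusted p under 0.05, 15 of 19 above 0 and a median of 0.15. The list's medians against the shared DMSO libraries were 0.12 in CSA and 0.10 in VCS, and TAC against their mean gave 0.075 with 0 calls. Among these targets ERRFI1, a feedback inhibitor of the EGF receptor, was at 38.5, 35.3 and 32.3 CPM in DMSO and 53.9, 43.1 and 40.9 in TAC (log2 0.37, SE 0.07, adjusted p = 0.0503). All 15 mitochondrially encoded transcripts lay below 0 (median -0.18). EdgeR and DESeq2 called 0 of them, with 2 at an unadjusted p under 0.05. Their median against the shared DMSO libraries was -0.14 in CSA and -0.02 in VCS. Mitochondrial transcripts took 7.10, 8.12 and 10.8% of the counts in DMSO 1 to 3 and 6.41, 6.61 and 10.1% in TAC 1 to 3, lower in TAC in each pair and highest in the libraries numbered 3; their part in the results was not tested. The 6 libraries held 29922496 to 33275968 counts.

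**Figure D5:**
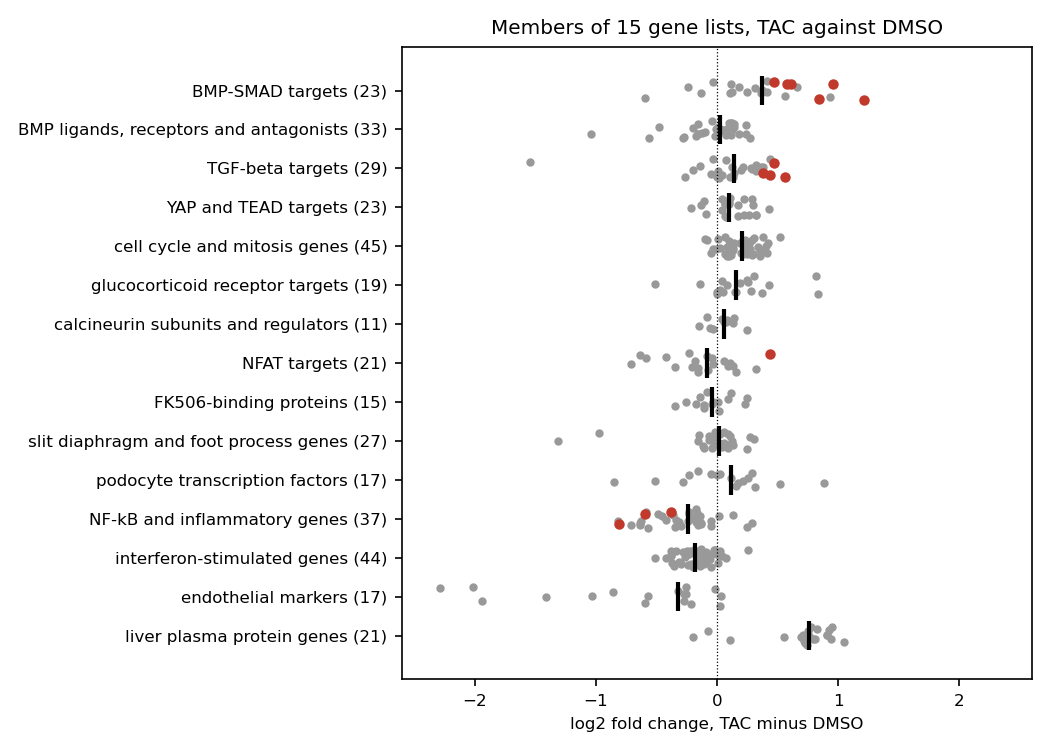
Log2 fold change of TAC minus DMSO (horizontal axis) for the tested members of 15 of the 38 gene lists, 1 point a gene (vertical position within a row is jitter), with the number tested in parentheses; red marks the called genes and the black bar the median. Among these 15 lists, which leave out the airway, keratin and histone lists with their calls, the medians run from -0.33 for endothelial markers to 0.76 for liver plasma proteins, 2 lists with 0 calls, and the called genes lie in the BMP, TGF-beta, NFAT and NF-kB lists.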

How the data were processed

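The data were bulk RNA-seq libraries of a podocyte line, poly(A)-selected with in-line UMIs and spike-ins per the labels' protocols. The authors deposited estimated counts per Ensembl gene, whole numbers as deposited; Salmon and GRCh38 are named in the submitters' processing notes, with no version. No source used here says whether UMIs were collapsed or strand was used, and the spike-ins were not analysed here. The filterByExpr function of edgeR 4.0.16 (R 4.3.3), at a minimum count of 10, left 19784 of 62262 genes, 22339 having no count. Counts were scaled by TMM and fitted by edgeR's quasi-likelihood test with group and replicate number as terms over 12 libraries (6 residual degrees of freedom). P-values were adjusted by Benjamini-Hochberg over all genes tested. CPM are TMM-scaled, and pair differences use log2 CPM with a prior count of 2. DESeq2 1.42.0 was an alternative on the same 12 libraries and with the same terms, with other filters, size factors and spread estimates. The 12 libraries held 28808213 to 36077072 counts, and intervals of count ratios cover counting error only. The script was tested on simulated data.

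The replicate numbers are from the labels. Deviations of same-numbered DMSO and TAC libraries from their group means correlated at 0.313, 0.108 and 0.377. Different numbers gave -0.371 to 0.113, so the value of pair 2 lay within that range. Deviations from a group mean cancel out within the group, so these correlations depend on each other and are no independent background. The numbers were taken as pairs because the comparison was set with the replicate number as a block. The comparison, its members and the 38 gene lists (884 genes, 819 tested) were chosen with earlier results of these data known, and the lists carry no set test. Named are FKBP1A, PPP3CA, RCAN1, NPHS1, SYNPO and WT1, genes with a symbol that passed, and up to 4 members per list by p; others are marked as named after their values were seen. Gene positions are from GENCODE 29 (18900 genes tested had an entry), promoters from RefSeq on GRCh38.p14.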

Additional observations from a re-analysis of the deposited data

How the results depend on the processing

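The count of 41 genes called (23 higher, 18 lower) and of 57 called against the mean of CSA and VCS differed between settings. No paired term (no replicate block) gave 7 (5 higher, 2 lower) and 9. Without a filter on low counts the counts were 606 (285 higher, 321 lower) and 676, and DESeq2 gave 209 (93 higher, 116 lower) and 329. With only the DMSO and TAC libraries, blocked, 1359 were called (710 higher, 649 lower), and robust estimation gave 64, 38 of them higher. Leaving out each of the 12 libraries gave 4 to 259 called, 3 to 127 higher, 1 to 132 lower, and 10 to 264 against CSA and VCS. RLE size factors gave 38, and leaving out the 4 libraries numbered 3 gave 41, of which 20 were shared. FKBP1A, at a log2 fold change of 0.01, changed sign to -0.053 without the libraries numbered 3, to -0.0071 without DMSO 1 and to -0.084 without TAC 3, and was 0.059 without TAC 1. The causes were not tested. With 3 libraries a group, differences smaller than the intervals given were not detectable.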

Other observations

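The genes around the neighbouring calls were looked up after those calls were seen and are given as values. In the chorionic gonadotropin cluster on chromosome 19, CGB2 had a log2 fold change of 1.89 (SE 0.41, adjusted p = 0.112) in TAC against DMSO and CGB5 of 0.98 (SE 0.57, adjusted p = 0.484). CGB3 was at 0.22 (SE 0.43, adjusted p = 0.854) and the luteinizing hormone beta gene LHB, at the end of the cluster, at 0.59 (SE 0.35, adjusted p = 0.495). Beyond KCNA7, the splicing factor gene SNRNP70 was at -0.13 (SE 0.08, adjusted p = 0.51). On chromosome 1, the genes past NOC2L were at -0.13 (SE 0.10, adjusted p = 0.613) for KLHL17 and -0.16 (SE 0.10, adjusted p = 0.502) for PLEKHN1. The surfactant genes SFTPA2 and SFTPA1, both lower in TAC, lie 50536 bases apart on chromosome 10, and the nearest other tested gene with a symbol, EIF5AL1, was at -0.15 (SE 0.28, adjusted p = 0.844).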
